A study of Mus musculus with 4 samples.

Results

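The genes described here are 40 genes of mitosis, found by their symbols among the 32287 features of single-cell libraries from the mouse heart, and all 40 matched 1 feature each. They were read in each class of cardiac cell as summed UMIs (distinct RNA molecules read), and in each cell as the number of their UMIs. Single live nucleated cells, labelled as interstitial cells, had been sorted from digested hearts into 4 libraries, 1 per group, and the labels do not say how many animals a library holds. All mice had received tamoxifen, and all carried Tcf21-MerCreMer, a tamoxifen-inducible Cre at the gene of TCF21, a transcription factor of cardiac fibroblasts. For both control libraries the labels name no further allele, 1 without infarction and 1 at 3 days after myocardial infarction, in which heart muscle dies after its blood flow is cut off. The other 2 libraries had the genotype Tcf21-MerCreMer:flox, again 1 without and 1 at 3 days after infarction. They are called deletion-labelled here, because Tcf21 itself was not lower in their fibroblasts, at 95.1 CPM in the control and 146 CPM in the deletion-labelled library without infarction, and at 22.6 and 32.9 CPM after it. CPM are counts per 1000000 UMIs, summed over the cells of a class. Which segment is floxed is not given, and 3′ counts from outside that part would not check the deletion.

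A cell that divides copies its DNA in S phase, passes G2 and then separates the copies in mitosis. Cyclins A and B switch on the kinase Cdk1 at the entry into mitosis, the Aurora and Polo kinases and the kinetochore proteins attach chromosomes to the spindle, kinesins move and order the spindle fibres, and a ubiquitin ligase with Cdc20 ends mitosis by destroying the cyclins. Most genes of this set are transcribed in G2 and mitosis and nearly silent in resting cells, so their RNA is a common readout of dividing cells. In a healthy adult heart few interstitial cells divide, whereas fibroblasts are known to proliferate in the first days after an infarction.

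The members lie on 16 chromosomes, with at most 7 on any 1 of them. Genes of this kind share promoter elements. The CCAAT box is bound by the factor NF-Y, and the cell cycle homology element, TTTGAA or TTCGAA, is bound by the DREAM complex, which keeps such genes silent in resting cells. Both were looked for on both strands of the 250 bases before the RefSeq start (GRCm38.p6), a table that lists 34 of the 40 members with 35 starts. CCAAT stood at least once in 77.1% of the members' promoters and in 33.8% of all 32851 promoters of that length. At least 2 copies stood in 54.3% and in 10.1%. TTTGAA or TTCGAA stood in 42.9% and in 17.1%, and both kinds of motif together in 40% and in 6.02%. The last 200 bases before the start are shown for 5 members that read below 10 CPM in fibroblasts without infarction and high after it, and for Hmgb2, which many resting cells also hold. They were picked without a set rule and are not typical. Each window shown holds both kinds of motif, against 14 of 35 member promoters over 250 bases. Anln, Birc5, Kif20b, Ndc80, Nuf2, Nusap1 and Tacc3 had neither motif there. Capitals mark the CCAAT box and the homology element on either strand, and neighbouring motifs can overlap.
Cdk1 (chr10:69352913-69353112, minus strand): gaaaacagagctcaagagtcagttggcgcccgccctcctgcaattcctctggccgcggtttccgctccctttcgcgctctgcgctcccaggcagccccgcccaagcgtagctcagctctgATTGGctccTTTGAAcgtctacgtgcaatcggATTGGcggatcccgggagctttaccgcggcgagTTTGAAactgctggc
Ccnb2 (chr9:70421555-70421754, minus strand): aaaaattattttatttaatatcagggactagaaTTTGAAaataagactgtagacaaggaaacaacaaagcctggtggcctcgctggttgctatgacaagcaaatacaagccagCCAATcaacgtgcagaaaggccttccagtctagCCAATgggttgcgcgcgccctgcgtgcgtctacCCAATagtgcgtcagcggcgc
Cdc20 (chr4:118437344-118437543, minus strand): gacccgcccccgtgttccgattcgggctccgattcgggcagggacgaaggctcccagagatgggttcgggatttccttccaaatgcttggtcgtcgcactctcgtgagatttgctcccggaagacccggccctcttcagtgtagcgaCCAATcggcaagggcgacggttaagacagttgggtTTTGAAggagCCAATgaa
Mki67 (chr7:135716380-135716579, minus strand): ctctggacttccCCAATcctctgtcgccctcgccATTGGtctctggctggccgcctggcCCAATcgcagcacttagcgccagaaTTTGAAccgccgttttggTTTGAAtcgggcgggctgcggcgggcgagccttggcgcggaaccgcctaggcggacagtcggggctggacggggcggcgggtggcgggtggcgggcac
Top2a (chr11:99024190-99024389, minus strand): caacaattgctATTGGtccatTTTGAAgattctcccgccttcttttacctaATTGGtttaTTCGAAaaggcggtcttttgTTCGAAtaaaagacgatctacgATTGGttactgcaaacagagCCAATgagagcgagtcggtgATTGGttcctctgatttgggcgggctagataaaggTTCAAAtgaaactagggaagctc
Hmgb2 (chr8:57511643-57511842, plus strand): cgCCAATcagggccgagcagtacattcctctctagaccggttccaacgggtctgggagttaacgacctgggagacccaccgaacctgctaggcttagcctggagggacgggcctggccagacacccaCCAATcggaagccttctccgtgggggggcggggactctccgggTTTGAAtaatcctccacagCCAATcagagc
The Top2a window holds 5 copies of CCAAT, 2 of TTTGAA and 2 of TTCGAA. The Hmgb2 window holds 3 copies of CCAAT and 1 of TTTGAA. Since every window shown holds both motifs, these windows cannot tell whether the motifs set Hmgb2 apart from other members. Such matches describe the letters and are not binding sites.

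The libraries held between 55710468 and 129704045 UMIs and between 8289 and 10142 cells after filters, and any pair of libraries shared between 19 and 41 barcodes. Clustering without cell division genes gave 29 clusters, of which 27 were named in 11 classes from marker genes and 2 stayed unnamed. Phagocyte cluster 3 had Lyve1 and endothelial cluster 9 had Kit, each a marker of another class, among their top 10 genes, and results that rest on them are given by cluster. With 1 library per group, differences between animals cannot be told apart from differences between groups. No test was run, and all intervals are 95% intervals that cover counting error only. In class sums, fewer dividing cells and less RNA per dividing cell cannot be told apart, so each class is also described by its dividing-type cells. A cell is called dividing-type when at least 3 UMIs of the members remain after it has been thinned at random to 2000 UMIs. Values of the 4 libraries are given in the order control and deletion-labelled without infarction, then control and deletion-labelled after infarction.

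Fibroblasts had few dividing-type cells without infarction and many after it. Without infarction 1.65% (1.13 to 2.34) and 1.32% (0.866 to 1.93) of the fibroblasts were dividing-type, and after infarction 38.2% (35.0 to 41.4) and 23.6% (21.3 to 25.9) were. Part of the low values without infarction came from 7 members that other cells also hold, namely Hmgb2, Smc2, Smc4, Cks2, Kif20b, Ckap2 and Tacc3. They were listed for that reason and without a set cut-off, so lower shares in resting cells on the other 33 are partly built in. Kif23 was kept, though it read 116 CPM in neutrophils of the deletion-labelled library without infarction. On the other 33 members, 0 of 1875 fibroblasts were dividing-type in the control without infarction, which allows a share of up to 0.160% (3 counts of the total), and 2 of 1965 were in the deletion-labelled library. After infarction the 33 members gave 32.7% (29.7 to 35.9) and 19.6% (17.5 to 21.8). Thinning matters here, since the median fibroblast held 10624, 13535, 31757 and 20136 UMIs. Without it, 36.8%, 44.5%, 86.7% and 66.6% of the fibroblasts had at least 3 member UMIs.

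**Figure D1:**
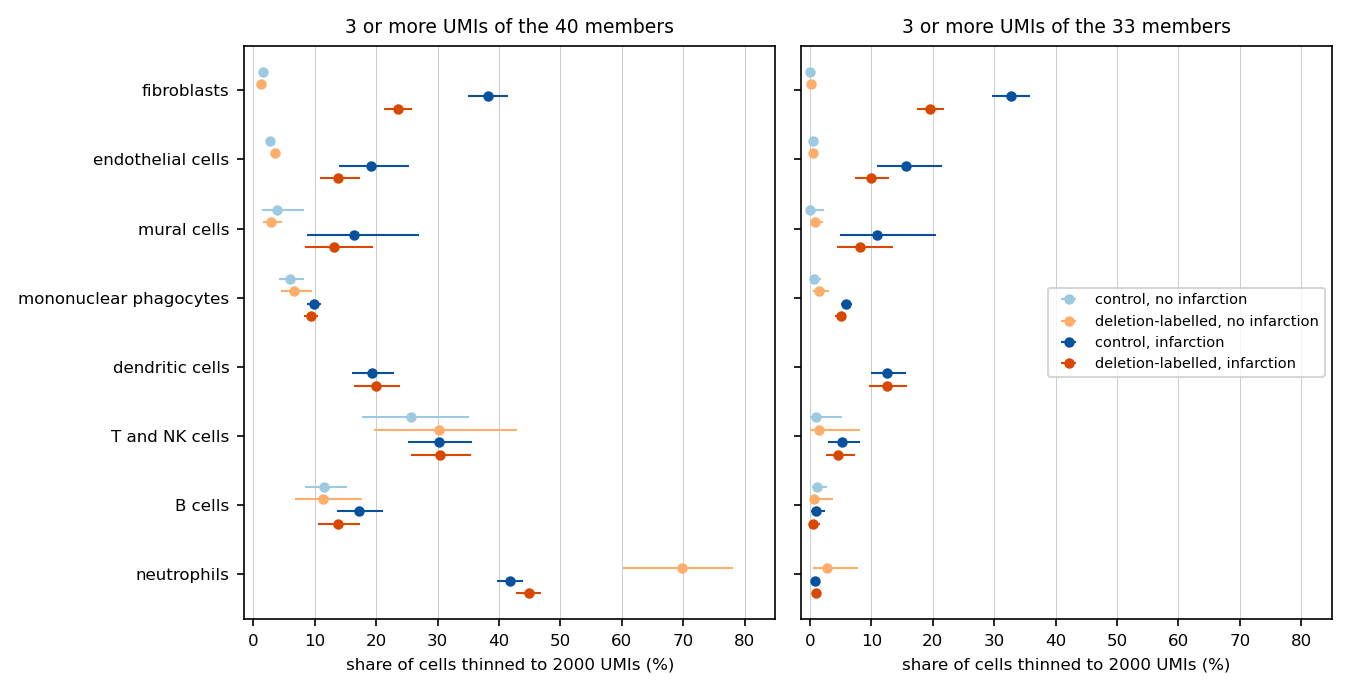
Share of cells (x axis, %) with at least 3 UMIs of all 40 members (left) or of the 33 members left without Hmgb2, Smc2, Smc4, Cks2, Kif20b, Ckap2 and Tacc3 (right), after thinning to 2000 UMIs, by cell class (y axis) and library (colours); bars are exact 95% intervals, and groups with fewer than 50 cells are not drawn. Fibroblasts stand at 38.2% and 23.6% after infarction on the left and at 32.7% and 19.6% on the right, while neutrophils go from over 40% to 0.865% and 1.01%.

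Neutrophils differed most between both counts. These short-lived cells do not divide once in the blood, yet 55.9%, 69.7%, 41.8% and 44.9% of them had at least 3 UMIs of the 40 members, the first of these over only 34 thinned cells. Hmgb2, a chromatin protein, gave 77.5%, 80.7%, 58.8% and 62.0% of their member UMIs. Its level was 1343, 1631, 773 and 864 CPM in neutrophils, above the 335 CPM of control fibroblasts after infarction. Cks2, a small subunit of Cdk complexes, stood at 133, 130, 328 and 268 CPM and Kif23, a kinesin of the dividing cell's midzone, at 143, 116, 44.0 and 59.0 CPM. Mki67, a common marker of cycling cells, was at 10.0 and 10.6 CPM after infarction, and only 1 and 2 of its UMIs were read without it. On the 33 members, 2.94%, 2.75%, 0.865% and 1.01% of neutrophils were dividing-type, so most of these cells had passed only through the 7 other members. T and NK cells, lymphocytes with many Smc4 and Hmgb2 UMIs, went from 25.7%, 30.3%, 30.2% and 30.4% on 40 members to 0.952%, 1.52%, 5.14% and 4.55% on 33, and B cells after infarction from 17.1% and 13.7% to 0.952% and 0.474%.

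In fibroblasts most members were read mainly in dividing-type cells. Over the 4 libraries together, each member was scored in cells that had at least 3 thinned UMIs of the other 39. All 54 thinned UMIs of Bub1, a kinase of the spindle checkpoint, lay in such cells, as did 98.9% of those of Ccna2 (cyclin A2), 98.4% of Ccnb1 (cyclin B1), 96.5% of Hmmr, a spindle protein, and 93.7% of Mki67. The exceptions were Smc4, a condensin subunit, with 25.7%, Hmgb2 with 54.2%, Smc2, its partner in condensin, with 55.6%, and Kif20b with 64.6%. The other 36 members had between 76.0% and 100%. These shares describe how UMIs fall over cells, and the cells were picked by members of the same set.

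The first role is the core of cyclins and Cdk1. In fibroblasts Ccnb1 read 0.146, 1.62, 49.4 and 30.5 CPM, from 3, 45, 1495 and 1031 UMIs. Ccna2 read 0.146, 1.52, 60.1 and 38.8 CPM, and Cdk1, the kinase they activate, read 0.389, 2.24, 70.7 and 39.4 CPM. Each of these genes was low in both libraries without infarction, high in both after it, and higher in the control than in the deletion-labelled library after it. Ccnb2 (cyclin B2) followed with 1.07, 3.86, 78.2 and 65.7 CPM. Cks2 read 2.72, 6.68, 171 and 116 CPM. After infarction the control values stood above those without it by a log2 ratio of 8.69 for Ccna2 (7.14 to 10.97), 8.40 for Ccnb1 (6.85 to 10.68), 7.51 for Cdk1 (6.52 to 8.72), 6.19 for Ccnb2 (5.59 to 6.87) and 5.97 for Cks2 (5.59 to 6.38).

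Genes that end mitosis by ubiquitin-mediated destruction behaved alike. Ube2c, the enzyme that hands ubiquitin to the ligase, read 0.194, 4.12, 76.1 and 47.6 CPM in fibroblasts. Cdc20, the ligase's activator, read 0.583, 2.56, 96.5 and 58.9 CPM. Cdca3, an F-box-like protein, had 0 UMIs in the control without infarction against 2019 after it, and read 1.16 and 56.0 CPM in the deletion-labelled libraries. With the 0 UMIs raised to a floor of 3 in the class sum, its control level after infarction was 458-fold higher, a value set by that floor.

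Among the mitotic kinases, the passenger complex and the checkpoint, the kinase Plk1 read 0.0486, 0.939, 40.03 and 25.4 CPM, the first value from 1 UMI. Aurka, the Aurora kinase of the spindle poles, read 0.292, 0.650, 16.9 and 9.16 CPM, and its activator Tpx2 1.36, 2.56, 95.3 and 67.2 CPM. Aurkb, the Aurora kinase of the chromosomal passenger complex, read 0.0486, 1.12, 15.6 and 8.28 CPM, and Birc5 (survivin), its partner there, 1.07, 2.85, 153 and 103 CPM. Both kinases thus stood lower in the deletion-labelled than in the control fibroblasts after infarction. The checkpoint kinases Bub1, Bub1b and Ttk were at 22.7, 26.0 and 10.7 CPM in the control and at 15.6, 22.1 and 7.21 CPM in the deletion-labelled library after infarction. Without infarction none of these 3 exceeded 1.73 CPM in either library.

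At the kinetochore and centromere, Cenpa, the histone variant that marks the centromere, read 3.35, 5.92, 141 and 111 CPM. Cenpf read 0.486, 6.43, 68.1 and 50.7 CPM, and the motor Cenpe 1.17, 2.56, 70.8 and 45.1 CPM. The Ndc80 complex members Ndc80, Nuf2 and Spc24, which grip the spindle fibres, stood at 19.0, 26.2 and 82.7 CPM in the control and at 12.4, 23.5 and 66.3 CPM in the deletion-labelled library after infarction. Nuf2 was the member with the smallest difference between these 2 libraries. Among kinesins and spindle proteins, Hmmr went from 1 UMI in the control without infarction to 3246 after it, a log2 ratio of 9.52 with the single UMI raised to 3 and an interval from 8.63 to 16.41 on the counts as read. It read 1.99 and 70.9 CPM in the deletion-labelled libraries. Kif11, the motor that pushes spindle poles apart, read 0.632, 1.44, 21.98 and 15.4 CPM. Nusap1, which bundles spindle fibres, differed less, with 1.99, 3.79, 15.1 and 10.5 CPM. In cytokinesis, the separation of the daughter cells, Anln (anillin) read 2.28, 5.02, 69.4 and 49.7 CPM.

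The genes of chromosome structure split. Mki67 read 0.292, 4.87, 136 and 102 CPM, and Top2a, the topoisomerase that untangles DNA, 0.778, 9.13, 84.1 and 57.4 CPM. Smc4 was already at 107 and 88.4 CPM without infarction and at 168 and 129 CPM after it, the smallest ratio of all members, with a log2 ratio of 0.65 (0.57 to 0.72) in the control and 0.54 (0.47 to 0.62) in the deletion-labelled libraries. Hmgb2 read 51.3, 58.7, 335 and 224 CPM.

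**Figure D2:**
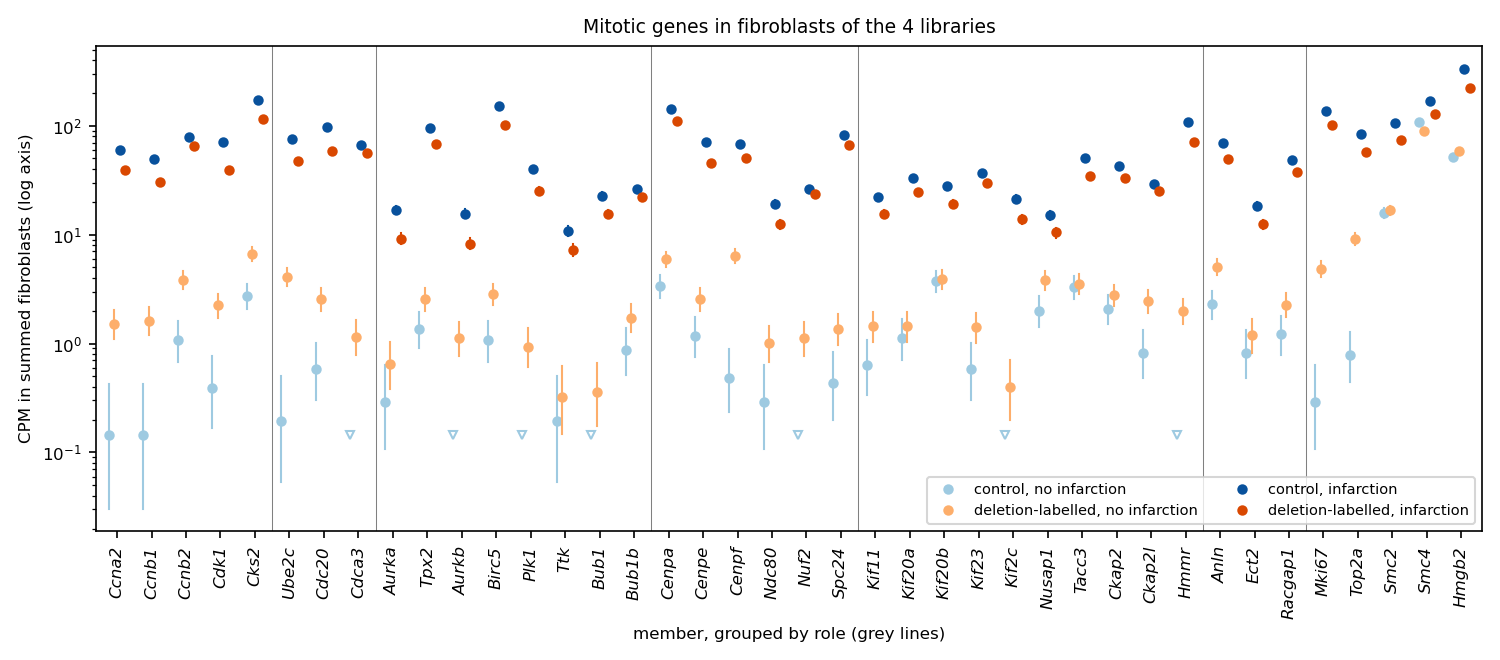
CPM (y axis, log scale) of each member (x axis, grouped by role) summed over fibroblasts in the 4 libraries (colours); bars are exact Poisson 95% intervals, and open triangles stand at the floor of 3 UMIs where fewer were read. Both infarction libraries (dark) stand above both libraries without infarction (light) for every member, the gap is smallest for Smc4, and the control lies above the deletion-labelled library after infarction for each of the 40.

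Counted over all members, 40 of 40 were at least 1.5-fold higher after infarction in control fibroblasts, where 25.4% of all 14829 genes measured were, and the median member stood at a log2 ratio of 5.998 with counts under 3 UMIs raised to 3. In the deletion-labelled fibroblasts 39 of 40 were higher, against 21.2% of all genes, with a median of 4.08 and with Smc4 as the exception. The median of all genes was -0.29 and -0.20. By role the control medians ran from 2.76 for chromosome structure, over 4.93 for cytokinesis and 4.999 for kinesins and spindle proteins, to 7.51 for the cyclin and Cdk1 core and 8.61 for the destruction genes. Beside the lower ratios of the deletion-labelled pair stand 2 cells in its library without infarction, described later, and without the 5 fibroblasts richest in member UMIs in each library its median was 5.55, against 6.05 in the control pair.

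Other lists of the cell cycle were read the same way. Of 70 other genes of G2 and mitosis, 64 were at least 1.5-fold higher after infarction in control and 65 in deletion-labelled fibroblasts, with medians of 4.32 and 2.86. Of 63 genes of DNA replication and S phase, 59 and 57 were higher, with medians of 2.94 and 2.21. Tk1, the thymidine kinase of S phase, went from 0.0972 to 42.5 CPM in the control. Of 14 inhibitors of Cdk kinases and pocket proteins, 8 were lower and 3 higher in either genotype, where 40.2% and 32.7% of all genes were lower, with medians of -0.99 and -0.86. Cdkn1c (p57) stood at 81.3 and 90.2 CPM without infarction and at 6.41 and 21.5 CPM after it. Gas1, a growth arrest gene, stood at 670 and 940 CPM without infarction and at 76.9 and 213 CPM after it. Cdkn2a, the locus of p16 and p19Arf, went the other way, from 0.437 and 0.469 to 9.19 and 7.77 CPM. Of 8 genes of growth entry, Cdk4, the partner of the D-type cyclins, was at 58.7 and 67.1 CPM without infarction and at 211 and 165 CPM after it, while Ccnd1 (cyclin D1) was at 241 and 218 and then at 176 and 185 CPM.

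After infarction the sum of every member was lower in the deletion-labelled than in the control fibroblasts. The 40 members summed to 2807 CPM (2788 to 2826) in the control and 1983 CPM (1968 to 1998) in the deletion-labelled library, a log2 ratio of -0.50. Of the 40, 12 were at least 1.5-fold lower and 0 higher, where 4.67% of all 14781 genes were lower and 13.3% higher. With means of CPM per cell 28 were lower, and the share of all genes is not given for that measure. Without the 5 richest cells of each library 20 were lower and 0 higher (5% and 13.2% of all genes). The median member in the sums stood at -0.54 and the median gene at 0.05. The largest differences were those of Aurkb at -0.91 (-1.13 to -0.69), Aurka at -0.89 (-1.09 to -0.68) and Cdk1 at -0.84 (-0.94 to -0.74). The smallest were those of Nuf2 at -0.16 (-0.30 to -0.01), Ckap2l at -0.19 (-0.33 to -0.05) and Bub1b at -0.23 (-0.38 to -0.09). Of the other G2 and mitosis genes 33 of 70 were lower and 0 higher, and of the S-phase genes 14 of 63 were lower and 0 higher. Gas1 and Cdkn1c were higher in the deletion-labelled library, by 1.47 (1.40 to 1.54) and 1.74 (1.51 to 1.98). The ratio of the shares of dividing-type fibroblasts was 0.617 (0.544 to 0.700) on 40 members and 0.599 (0.519 to 0.690) on 33. The library identity, the genotype and the animals cannot be told apart in this comparison.

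Both infarction libraries differed in which fibroblast clusters they held, and the share of dividing-type cells differed between these clusters. Cluster 13, led by Steap1, P4ha3, Ccn4, Kif26b and Ptprn, held 907 of 928 control fibroblasts (97.7%) and 907 of 1389 deletion-labelled ones (65.3%) after infarction, against 0.425% and 0.253% of the fibroblasts without infarction. Clusters 4 (led by Col6a6) and 10 (led by Efhd1), which held nearly all fibroblasts without infarction, took 0.754% and 1.51% of control fibroblasts after it, but 14.3% and 20.4% of deletion-labelled ones. In those cells of the deletion-labelled heart after infarction, the 33 members gave 1 of 198 dividing-type cells in cluster 4 and 3 of 281 in cluster 10. Within cluster 13 the share was 33.5% (30.4 to 36.7) in the control and 29.8% (26.8 to 32.9) in the deletion-labelled library, and these intervals overlap. The summed members were still lower there in the deletion-labelled library, at a log2 ratio of -0.26 (-0.28 to -0.25). The median member there stood at -0.29, with 2 of 40 at least 1.5-fold lower and 0 higher, where 4.19% and 7.7% of all 14472 genes were. The 2 were Aurkb at -0.65 and Aurka at -0.62. Endothelial cells differed in the same way. Endothelial cluster 0, led by Vwf, made up 80.9% of endothelial cells in the control infarction library and 52.0% in the deletion-labelled one, and endothelial clusters 5 and 7, common without infarction, made up 2.97% and 1.69% of the control class but 11.2% and 10.3% of the deletion-labelled one. What set these proportions was not tested.

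Members were also compared inside the dividing-type fibroblasts of both infarction libraries. Such cells are chosen for UMIs of the same set at a fixed depth, which itself holds the member levels of both libraries near each other. Cells were picked by the 33 members, leaving out the gene that is read, which gave 299 control and 267 deletion-labelled fibroblasts when none is left out. The median member stood at -0.06, and 1 of 40 was at least 1.5-fold lower (4.23% of all genes) and 0 higher (7.89%). The 1 was Aurkb, at 32.9 CPM (29.8 to 36.3) in the control and 21.5 CPM (18.7 to 24.7) in the deletion-labelled library. In dividing-type phagocytes, chosen in the same way, the median was 0.29, Nuf2 alone was at least 1.5-fold higher, at 37.8 and 57.4 CPM, and 0 members were lower (9.53% and 5.21% of all genes). In dividing-type endothelial cells the median was also 0.29, and Ckap2 and Ckap2l were higher and 0 lower (15.1% and 9.4%). In dividing-type dendritic cells the median was 0.09 and Ttk was lower and 0 higher (8.89% and 10%). Among the dividing-type fibroblasts Mki67 stood at 308 and 330 CPM, Ccnb2 at 145 and 170 CPM, and Cdk1 at 144 and 107 CPM. The dividing-type cells by the 40 members had a median of 9 member UMIs of 2000 in both libraries, spread over 7 members. At least 3 S-phase UMIs were found in 79.7% and 70.7% of them and in 25.3% and 14.3% of the other fibroblasts, so most cells with mitotic RNA also held RNA of DNA replication. Fibroblast markers summed to a median of 106 and 136 UMIs per 10000 in dividing-type and 139 and 306 in the other fibroblasts. T and NK cell markers were at a median of 0 in all 4 of these groups, and mononuclear phagocyte markers at 1.16 and 0.918 in dividing-type against 1.22 and 1.05 in the others. Endothelial markers were at 0.762 and 0.442 against 0.312 and 0, and mural markers at 2.12 and 1.69 against 1.64 and 1.41, each far below the fibroblast markers, and their part in the result was not tested. The dividing-type cells were also deeper, with a median of 40095 and 33944 UMIs against 27174 and 17070.

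**Figure D3:**
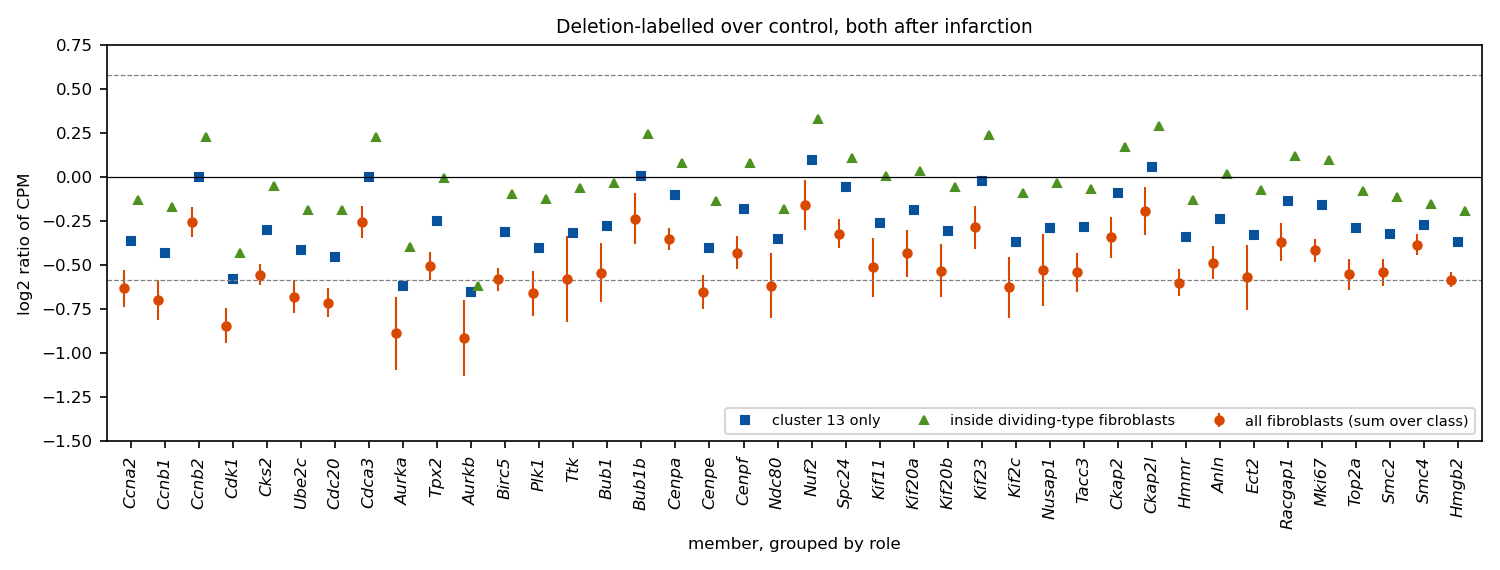
Log2 ratio of CPM, deletion-labelled over control after infarction (y axis), for each member (x axis, grouped by role) in all fibroblasts (circles, with exact 95% intervals), in cluster 13 alone (squares) and inside dividing-type fibroblasts (triangles); dashed lines mark 1.5-fold. The medians of the 3 sets are -0.54, -0.29 and -0.06, and Aurkb lies below the lower dashed line in each of them.

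Without infarction, the difference between genotypes in fibroblasts rested on 2 cells. In class sums 31 of 39 members with at least 10 UMIs were at least 1.5-fold higher in the deletion-labelled library (9.62% of all genes) and 0 lower (7.28%). The median log2 ratio was 1.31. Of the 2256 UMIs of the 33 members in its 1973 fibroblasts, 883 were in 1 cell and 704 in a second, and the next cell held 14. Both were in cluster 10, with 36913 and 30213 UMIs in all, and had 772 and 533 UMIs of fibroblast markers, 7 and 2 of mononuclear phagocyte markers and 34 and 79 of the B cell list. In the control library the richest fibroblast held 6 of 470 UMIs. Without the 5 richest fibroblasts in each library the median was -0.11, with 5 of 27 members higher and 5 lower (9.09% and 7.42% of all genes), and the direction turned. The 33 members then summed to 21.8 CPM in the control and 23.3 CPM in the deletion-labelled library, against 22.8 and 81.4 CPM with all cells. Mural cells, the pericytes and smooth muscle cells of vessels, were alike in this. There 21 of 34 members were higher in the deletion-labelled library without infarction (14.4% of all genes), 2 cells held 456 and 276 of the 962 UMIs, and without the 5 richest cells 1 of 5 members was higher and 2 were lower (13.6% and 14.9%), with a median of -0.12. After infarction their shares of dividing-type cells on the 33 members were 8 of 73 in control and 13 of 159 in deletion-labelled mural cells, against 0 of 154 and 4 of 492 without it. Mki67 read 1.29, 33.4, 74.5 and 93.5 CPM there and Cdc20 0, 4.21, 44.9 and 18.7 CPM, from at most 160 UMIs. Of the members, 34 of 35 were higher after infarction in the control pair (22.6% of all genes; 38.8% lower) and 27 of 37 in the other (16.9%; 29.9% lower). After infarction the 5 richest cells held 73.3% and 60.8% of the UMIs of the 33 members. Without the 5 richest cells of each library, 16 of 18 and 19 of 22 members were higher and 0 lower. The share of all genes is not given for this setting. Between genotypes after infarction 1 of 38 was higher and 17 were lower (18.7% and 5.73%), and without the 5 richest cells of each library 5 of 23 were higher and 4 lower (18.2% and 6.31%).

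Mononuclear phagocytes, the monocytes and macrophages that enter an infarct, had fewer dividing-type cells than fibroblasts after infarction and little difference between genotypes. On the 33 members their shares were 0.709%, 1.43%, 5.93% (5.09 to 6.85) and 4.99% (4.16 to 5.94), and the ratio of the last pair was 0.843 (0.672 to 1.06). Ube2c read 2.48, 3.33, 21.5 and 23.9 CPM, Ccnb1 1.15, 0.784, 8.62 and 9.20 CPM, and Cdk1 5.34, 8.23, 15.5 and 14.0 CPM. Mki67 read 42.9, 28.4, 48.4 and 49.2 CPM, Top2a 27.5, 25.5, 39.9 and 43.7 CPM, and Hmgb2 182, 200, 205 and 207 CPM. Ccnb1 and Ube2c thus stood several times higher after infarction in both genotypes, while Mki67 and Hmgb2 differed by less than 1.5-fold in the control pair. The kinases Plk1 and Aurkb read 5.48 and 6.19 CPM in the control and 6.43 and 5.91 CPM in the deletion-labelled library after infarction, and Cdc20 read 7.58 and 7.76 CPM.

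Counted over all members, 26 of 40 were at least 1.5-fold higher after infarction in control phagocytes and 3 lower (17.5% and 45.2% of all genes), and 33 were higher and 1 lower in the deletion-labelled ones (17.2% and 38.7%). The medians were 0.88 and 1.14. The largest ratios in the control were those of Birc5 at 3.12 (2.52 to 3.797) and Ube2c at 3.12 (2.34 to 4.03). Kif23 at -1.49 (-1.76 to -1.22), Anln at -0.998 (-1.38 to -0.60) and Smc4 at -0.62 (-0.76 to -0.47) were lower after infarction. Kif23 and Anln were also less confined to dividing-type cells among phagocytes, with 50% and 37.7% of their thinned UMIs in cells with at least 3 UMIs of the other members, against 97.7% and 89.3% among fibroblasts. Cenpa had 32.0% against 80.0%. The infarction comparison sets different clusters side by side, since cluster 3, led by Lilra5 and Pla2g2d, held 95.7% and 88.3% of the phagocytes without infarction and only 11 cells of the infarction libraries. Without that cluster the deletion-labelled median was 0.11, with 14 members higher and 7 lower (14.6% and 54.6% of all genes), over only 50 phagocytes without infarction. A few cells weighed here too, as 3 cells held at least 50% of the UMIs of the 33 members in each library without infarction, and without the 5 richest cells in each library the medians were 2.56 and 2.24.

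Between genotypes after infarction, 0 of 40 members were higher and 0 lower by 1.5-fold in phagocytes, where 9.1% and 4.09% of all 13935 genes were, and the median was 0.07. The largest ratio was that of Kif2c, a kinesin that takes down spindle fibres, at 0.45 (0.18 to 0.73), and the lowest that of Bub1 at -0.17 (-0.39 to 0.06). Without infarction 6 of 36 were higher and 9 lower (9.74% and 7.94% of all genes), from low counts, and the median of 0.06 changed sign under several settings. By cluster, cluster 23, led by Syngr1, Nxpe5 and Cela1, held most dividing-type phagocytes after infarction, with shares on the 33 members of 9.97% (8.504 to 11.6) and 9.65% (7.98 to 11.5). Cluster 22, led by Dmkn, Cd177 and Met, had 0.788% (0.341 to 1.55) and 0.713% (0.287 to 1.46), below cluster 23 in both libraries with no overlap of the intervals. Between genotypes 2 of 40 members were higher and 0 lower in cluster 23 (9.89% and 3.71% of all genes), and 9 of 39 higher and 1 lower in cluster 22 (7.79% and 4.06%). The count in cluster 22 rests on few dividing-type cells, and its summed members stood at a log2 ratio of 0.024 (-0.026 to 0.074). Cluster 24, led by Mlxipl, Car6 and Cd5l, had 11 of 294 and 5 of 209 cells. There 29 of 40 members were at least 1.5-fold lower in the deletion-labelled library, and 0 higher, against 6.14% and 8.58% of all genes, from few dividing-type cells.

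**Figure D4:**
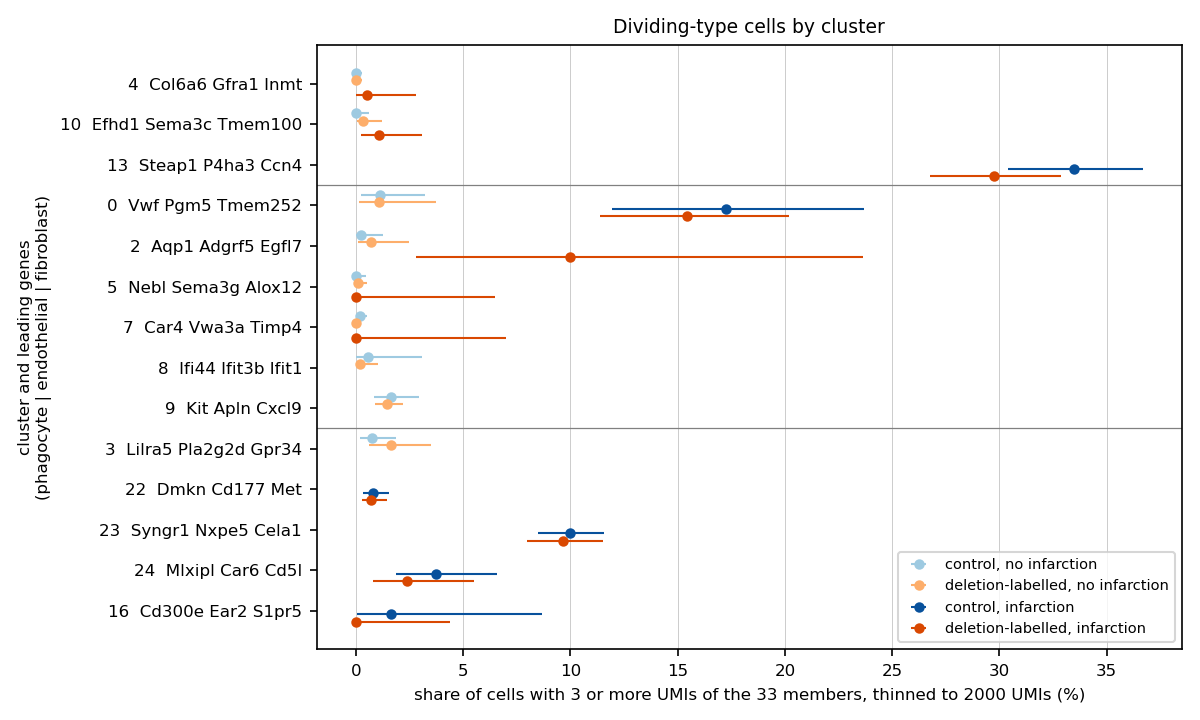
Share of cells (x axis, %) with at least 3 UMIs of the 33 members after thinning to 2000 UMIs in fibroblast (top), endothelial (middle) and phagocyte (bottom) clusters, named on the y axis by number and leading genes, by library (colours), for clusters with at least 50 cells in the library; bars are exact 95% intervals. The high shares after infarction are those of fibroblast cluster 13 (33.5% and 29.8%), endothelial cluster 0 (17.2% and 15.4%) and phagocyte cluster 23 (9.97% and 9.65%), with endothelial cluster 2 at 4 of 40 cells.

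Endothelial cells, the lining of the vessels, had 0.467% (0.281 to 0.728), 0.519% (0.339 to 0.760), 15.7% (10.9 to 21.5) and 9.87% (7.35 to 12.9) dividing-type cells on the 33 members. Only 236 and 561 endothelial cells were kept after infarction, against 4581 and 5772 without it. Birc5 read 3.37, 6.51, 131 and 103 CPM, Ube2c 2.15, 6.35, 113 and 79.1 CPM, Ccnb1 1.49, 1.83, 32.9 and 20.2 CPM, and Mki67 24.2, 14.96, 148 and 149 CPM. All of them were higher in both infarction libraries. All 40 members were at least 1.5-fold higher after infarction in both genotypes (28.4% and 23.9% of all genes) and 0 lower (30.1% and 21.3%), with medians of 3.45 and 3.26. Between genotypes after infarction 3 of 40 were lower and 0 higher (4.31% and 14.7%), with a median of -0.15. The 3 were Ccnb1 at -0.71 (-1.16 to -0.26), Cenpa at -0.62 (-0.88 to -0.36) and Ccnb2 at -0.59 (-0.89 to -0.29). The count varied, with 11 lower and a median of -0.39 at a limit of 10% mitochondrial UMIs, and 10 lower and -0.28 with means per cell. The shares of all genes are not given for these settings. Without the 5 richest cells of each library 1 was lower and the median was -0.03 (4.72% of all genes lower, 14.9% higher). Within cluster 0, which holds most dividing-type endothelial cells, the shares were 17.2% (11.9 to 23.7) and 15.4% (11.4 to 20.2), the median member stood at 0.07, and 0 of 40 were lower (4.01% of all genes). The summed members stood at a log2 ratio of 0.05 (0.006 to 0.097) within this cluster, unlike the -0.26 (-0.28 to -0.25) within fibroblast cluster 13. Cluster 0 made up a smaller proportion of the class in the deletion-labelled library, and the part of this in the class level was not tested.

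Without infarction, endothelial members came mainly from a few cells. In the control 5 of 4581 cells (0.109%) held 50% of the 2833 UMIs of the 33 members, and 8 of 5772 (0.139%) in the deletion-labelled library. After infarction few cells weighed as well, since 6 of 236 control cells (2.54%) and 9 of 561 deletion-labelled cells (1.60%) held 50% of these UMIs. Cluster 9, led by Kit and Apln, gave 11 of 19 dividing-type endothelial cells in the control and 20 of 26 in the deletion-labelled library, with shares of 1.64% (0.822 to 2.92) and 1.44% (0.881 to 2.21). Cluster 7, led by Car4, had 3 of 1716 and 0 of 1511, so cluster 9 stood above it in both libraries with no overlap of the intervals. Cluster 9 was not set apart from cluster 0, led by Vwf, on the 40 members. There the shares without infarction were 4.09% (2.06 to 7.20) and 7.89% (4.49 to 12.7) in cluster 0. In cluster 9 they were 3.73% (2.43 to 5.46) and 4.03% (3.06 to 5.20). Between genotypes 4 of 40 members were higher and 3 lower (9.63% and 8.8% of all genes), with a median of 0.11, and without the 5 richest cells in each library 19 of 39 were higher and 0 lower (9.93% and 8.8%). Without cluster 9, 1 of 37 was higher and 13 were lower (9.81% and 8.36% of all genes), and the median was -0.25.

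Dendritic cells, which present antigen, had 12.6% (9.93 to 15.7) and 12.5% (9.59 to 15.9) dividing-type cells on the 33 members after infarction, and too few cells without it to compare. Mki67 stood at 138 and 176 CPM, Top2a at 142 and 188 CPM, Cdk1 at 38.5 and 36.4 CPM and Aurkb at 19.5 and 23.9 CPM. Of the 40 members 1 was lower and 0 higher by 1.5-fold in the deletion-labelled library (4.21% and 8.14% of all genes). The 1 was Ttk, from 38 UMIs in the control and 19 in the deletion-labelled library. Of all dividing-type cells on the 33 members after infarction, 623 in the control and 549 in the deletion-labelled library, fibroblasts gave 48.0% and 48.6%, mononuclear phagocytes 27.4% and 21.9%, dendritic cells 11.1% and 10.4%, and endothelial cells 4.98% and 8.56%. Without infarction there were 33 and 47 such cells in all, of which endothelial cells gave 57.6% and 55.3%. How the digestion and the sort weigh in these proportions was not tested.

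The levels of single members were also set side by side between dividing-type cells of different classes. Cells were again picked by the 33 members without the gene that is read. Against dividing-type phagocytes, fibroblasts held at least 1.5-fold more of 4 members and less of 3 in both infarction libraries, where 30% and 19.2% of all genes differed in this way. At 4 and 3 of 40 members these counts lie under the background, and the members that differed are described singly. Cdc20 read 220 CPM (212 to 228) and 193 CPM (185 to 202) in fibroblasts and 70.2 CPM (63.0 to 78.1) and 86.0 CPM (76.5 to 96.3) in phagocytes. Anln read 151 and 153 CPM against 61.2 and 74.8 CPM, Ckap2 88.5 and 99.9 CPM against 34.1 and 45.4 CPM, and Cks2 342 and 332 CPM against 164 and 181 CPM. These 4 were higher in fibroblasts in both libraries. Top2a read 177 CPM (170 to 185) and 168 CPM (160 to 176) in fibroblasts and 373 CPM (356 to 392) and 482 CPM (459 to 506) in phagocytes. Nusap1 read 34.6 and 33.9 CPM against 97.6 and 133 CPM, and Mki67 308 and 330 CPM against 470 and 577 CPM. These 3 were lower in fibroblasts.

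The same 3 members were also at least 1.5-fold lower in dividing-type fibroblasts than in those of other classes. In endothelial cells Nusap1 read 144 and 168 CPM, Top2a 477 and 677 CPM and Mki67 514 and 728 CPM, from 31 and 47 cells. In dendritic cells they read 179 and 233 CPM, 675 and 821 CPM and 651 and 769 CPM. Against endothelial cells 14 members were lower and 0 higher in fibroblasts in both libraries (24.3% and 13% of all genes), among them Aurkb, Cenpf, Kif11 and Cdk1. Against dendritic cells 8 were lower and 7 higher (18.6% and 29.7% of all genes), which is near or under the background. Cdc20 was close to the fibroblast level in endothelial cells, at 228 and 228 CPM, and low in dendritic cells, at 87.0 and 73.6 CPM. The cell's phase within the cycle was not measured apart from these RNAs.

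**Figure D5:**
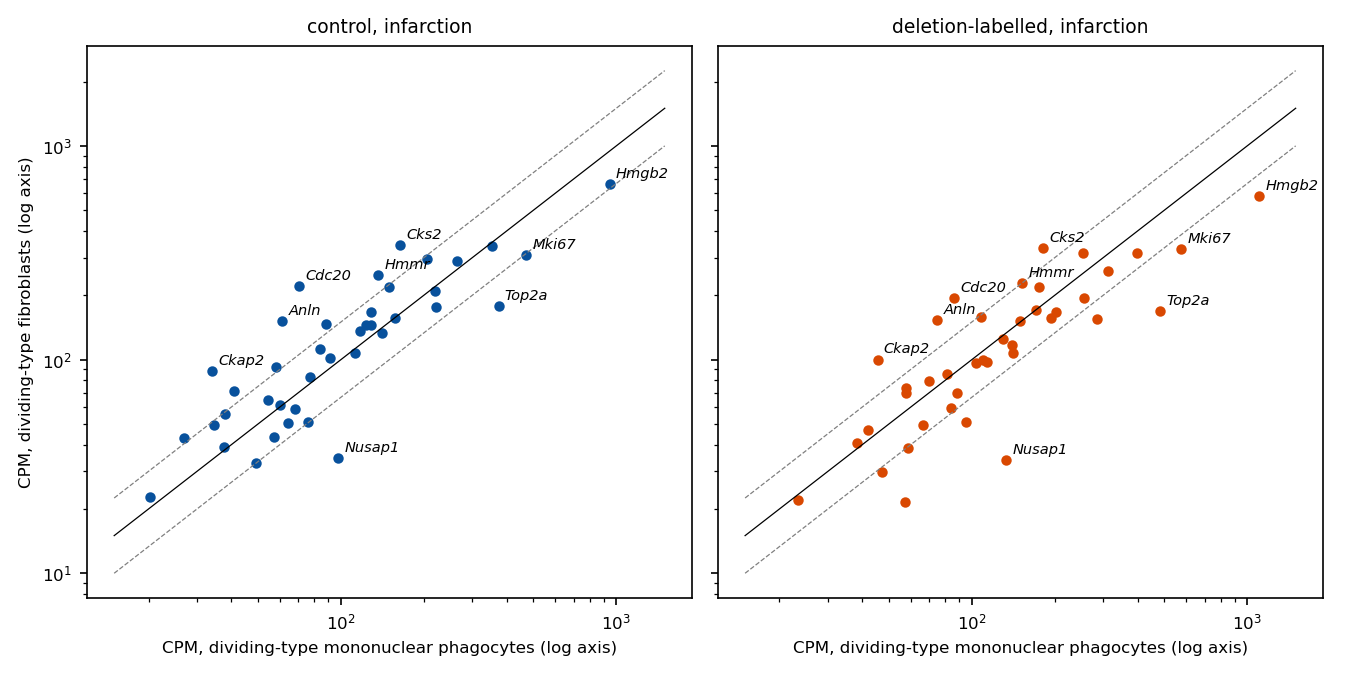
CPM of each member inside dividing-type mononuclear phagocytes (x axis, log scale) and inside dividing-type fibroblasts (y axis, log scale) in the control (left) and deletion-labelled (right) library after infarction; the solid line is equality and dashed lines mark 1.5-fold. Cdc20, Anln, Ckap2 and Cks2 lie above and Nusap1, Top2a and Mki67 below the dashed lines in both panels.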

How the data were processed

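Single cells had been read by 10x 3′ v3.1 libraries, and the deposited values are raw UMI counts per gene and cell, made by the authors with Cell Ranger 5.0.1 on mm10, per the submitters' processing notes. Cells with at least 500 UMIs, 200 genes and at most 20% mitochondrial UMIs were kept, and barcodes with the highest Scrublet doublet scores were removed at 0.8% per 1000 barcodes (scanpy 1.11.5). After infarction this took 8.67% and 8.42% of dividing-type and 9.82% and 10.0% of other barcodes. Without infarction it took 4.89% and 10.5% of dividing-type and 7.29% and 9.12% of other barcodes. These are dividing-type by the 40 members, and neutrophils made up 47.4% and 54.3% of such kept cells after infarction. The values thus do not show how dividing cells alone fared. Cells were clustered on 2000 variable genes without cell division genes (30 components, 20 neighbours, Leiden resolution 1.0), and clusters were named from marker lists. Counts were summed per class and library. Ratios are log2 ratios of CPM with exact conditional 95% intervals, taken where either sum held 10 or more UMIs, and counts under 3 were raised to 3. A gene is called higher or lower at 1.5-fold. Intervals of share ratios are Katz log intervals, and those of shares exact Clopper-Pearson ones. The thinning was checked on counts with known shares, and the median-of-ratios scaling on simulated sums with known changes. Named genes are the members by role, 8 of them in every main class, and per comparison the 3 highest and 3 lowest with at least 30 UMIs. Of the other lists, the 2 highest and 2 lowest could be named. Cdk4, Ccnd1, Gas1 and Tk1 follow from that rule. The members and lists were chosen with earlier results of these data known. The alternatives were another scaling, means per cell, other minimums, other clusterings, no doublet removal, a stricter mitochondrial limit and no thinning.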

Additional observations from a re-analysis of the deposited data

Results flagged for a closer look

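In 3 classes flagged here the summed members differed between genotypes in opposite directions without and after infarction. Other classes turned too. Control and deletion-labelled phagocytes read 573 and 553 CPM without infarction and 792 and 818 CPM after it. B cells read 573 and 599 CPM, then 822 and 598 CPM. Of the 445 UMIs of the 33 members in control B cells after infarction, 189 were in 1 cell. After infarction the 33 members read 293 and 165 CPM in B cells, and 165 and 152 CPM without the 5 richest cells of each library. In phagocytes and in B cells the intervals without infarction overlapped. With 1 library per group, this difference was not tested. In fibroblasts the log2 ratio of deletion-labelled over control was 0.33 without and -0.50 after infarction, in endothelial cells 0.15 and -0.16, and in mural cells 1.02 and -0.48. Without the 5 cells richest in member UMIs in each library, the ratios were -0.15 and -0.52 in fibroblasts, 0.33 and 0.01 in endothelial cells and -0.15 and 0.08 in mural cells.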

How the results depend on the processing

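No paired analysis was possible because a group holds only 1 library here. Of 162 alternative values, 93 stayed within the counting error of the reported one and the others moved beyond it. Except where a value says otherwise, the cause was not tested. In this paragraph, median log2 ratios are given for deletion-labelled over control without infarction (A) and after it (B), and for infarction over none in the control (C) and deletion-labelled libraries (D). Member counts stand here without the share of all genes under the same setting. The median changed sign in 9 of the alternatives, 6 of them for phagocytes A and 1 each for phagocytes B, endothelial cells A and fibroblasts A. Among these, only the reported median of fibroblasts A was past 1.5-fold. Median-of-ratios scaling gave fibroblasts B -0.57 (16 lower), C 6.31 and D 4.30, phagocytes B -0.022, C 1.19 and D 1.26, and endothelial cells C 3.35. Means of CPM per cell gave fibroblasts A 0.84, B -0.72 (28 lower), C 5.81 and D 4.22, phagocytes A -0.28, B 0.0046, C 1.16 and D 1.33, and endothelial cells A 0.23 (8 higher), B -0.28 (10 lower) and C 3.74. Raising counts under 1 to 1 gave fibroblasts A 1.42. Without the 7 members found in other cells, fibroblasts gave A 1.61, C 6.74 and D 4.14, phagocytes A 0.18, C 1.16 and D 1.44, and endothelial cells A 0.22, C 3.67 and D 3.32. Clustering with cell division genes gave fibroblasts A 1.74 and D 3.64, phagocytes A -0.20 (1 higher) and B 0.10, and endothelial cells D 3.32. No doublet removal gave fibroblasts A 1.55 and D 3.802, phagocytes C 0.95 and D 1.23, and endothelial cells C 3.65 and D 3.32. A minimum of 30 UMIs gave phagocytes A -0.13 and no minimum A -0.089. Clustering each library alone gave phagocytes A -0.055, B 0.093, C 0.78 and D 0.84, and endothelial cells B -0.29 and D 3.12. At most 10% mitochondrial UMIs gave phagocytes A 0.19, C 0.98 and D 1.07, and endothelial cells B -0.39 (11 lower), C 3.51 and D 3.11. Without thinning, the ratio of fibroblast shares was 0.768. The last 2 alternatives were chosen after seeing the data. Without clusters 3 and 9, phagocytes gave D 0.11, with 14 higher and 7 lower, and endothelial cells A -0.25 (13 lower), C 4.44 and D 4.82. Without the 5 richest cells of each library, fibroblasts gave A -0.11, B -0.58 (20 lower), C 6.05 and D 5.55, phagocytes A -0.083, B 0.031, C 2.56 and D 2.24, and endothelial cells A 0.57 (19 higher), B -0.031 and C 3.92.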
